A study of Mus musculus with 79 samples.

Results

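The levels of 9 genes of nicotinamide adenine dinucleotide (NAD) metabolism were followed in 79 mouse RNA sequencing libraries of a study of adenosylhomocysteinase (AHCY). They were chosen by symbol: Nampt, Nmnat1, Nmnat2 and Nmnat3 of NAD salvage, the sirtuins Sirt1, Sirt2, Sirt3 and Sirt6, and Parp1. All 9 were present in each of the 6 deposited tables, among 23511 gene names in the WT and KO tables, 20800 in the fibroblast tables of the inhibitor and 24346 in the tables of the suprachiasmatic nucleus (SCN). AHCY hydrolyses S-adenosylhomocysteine, which methyltransferases release and which inhibits them, and the study asked how it bears on the circadian clock.

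NAD is recycled from nicotinamide, which its consumers release. NAMPT, the rate-limiting enzyme of this salvage, turns nicotinamide into nicotinamide mononucleotide, and the NMNAT enzymes turn that into NAD in the nucleus (NMNAT1), at the Golgi and in axons (NMNAT2) and in mitochondria (NMNAT3). Sirtuins spend NAD to remove acetyl and related groups from proteins, and PARP1 spends it to build ADP-ribose chains at DNA breaks. In mouse liver and fibroblasts, Nampt is known as a target of CLOCK and BMAL1, and SIRT1 acts back on the clock, so the pathway is known as a link between NAD and circadian time.

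All fibroblasts came from embryos of a C57BL/6J background and were synchronized to circadian time (CT) with the glucocorticoid dexamethasone, at 100 nM for 1 h. In the first experiment, fibroblasts with AHCY intact (WT) and AHCY null fibroblasts made by CRISPR-Cas9 editing (KO) were collected at CT12, CT16, CT20, CT24, CT28 and CT32, with 3 libraries per group. The second experiment compared fibroblasts given the solvent DMSO with fibroblasts given 3-deazaneplanocin A (DZnep), an AHCY inhibitor whose dose is not given in the sources used here, with 3 libraries at each of CT12 and CT24. The last used the SCN, the circadian pacemaker, punched from C57BL/6 mice aged 10 weeks whose hypothalamus had been infused with saline or DZnep. It was collected at CT3, CT9, CT15 and CT21, in 4 libraries each but for the 3 of saline CT21. The labels call libraries of a group biological replicates and do not say whether several KO lines were used, so a difference between cell lines and the loss of AHCY cannot be told apart.

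Ahcy itself was at 131 to 214 TPM, a share of transcripts scaled by length, in the 18 WT libraries and at 2.21 to 4.74 in the 18 KO libraries. Fibroblast markers summed to 5459 or more TPM in every WT and KO library and to 2226 or more FPKM, a fragment count scaled by transcript length and library size, in every library of the inhibitor experiment, where the 6 DZnep libraries (at most 2411) all lay below the 6 DMSO libraries (at least 3795). The KO libraries (at most 6335) likewise all lay below the WT libraries (at least 7460). At least 11 of 12 SCN markers were at 1 FPKM or more in each SCN library. The WT libraries of CT20 held skeletal muscle transcripts (10 markers summing to 486 to 654 TPM, against 5.47 to 6.15 at CT20 in KO). The library of saline replicate 2 at CT9 held more microglial transcripts than any other SCN library (9 markers summing to 486 FPKM; the median of the saline libraries was 63.3). In these bulk samples, fewer cells of a type and less RNA per cell cannot be told apart.

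Per unit length, Parp1 and Sirt2 led the order of levels in fibroblasts, and Sirt2 and Nmnat2 led it in the SCN. In the WT fibroblasts, the mean TPM fell from Parp1 (62.2 ± 7.48, SD, n = 18) through Sirt2 (51.1 ± 8.76), Nampt (43.6 ± 3.43), Sirt6 (25.8 ± 1.95), Sirt1 (23.4 ± 1.96) and Sirt3 (11.7 ± 1.82) to Nmnat1 (4.84 ± 0.82), Nmnat3 (2.51 ± 0.54) and Nmnat2 (1.72 ± 0.36). The ranges of Parp1 and Sirt2, Sirt2 and Nampt, Sirt6 and Sirt1, Nmnat1 and Nmnat3, and Nmnat3 and Nmnat2 overlapped over the WT libraries. In the saline SCN, the mean FPKM fell from Sirt2 (32.6 ± 4.43, SD, n = 15) and Nmnat2 (32.3 ± 3.19), whose ranges overlapped, to Nampt (8.90 ± 1.93), Sirt3 (7.55 ± 0.89), Parp1 (6.89 ± 0.90), Sirt1 (3.95 ± 0.52), Sirt6 (1.97 ± 0.24), Nmnat1 (1.87 ± 0.36) and Nmnat3 (0.52 ± 0.13). Nampt overlapped Sirt3, Sirt3 overlapped Parp1, and Sirt6 overlapped Nmnat1 there.

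The 3 Nmnat genes changed places between fibroblasts and the SCN. Within each library their levels were taken as shares of their sum. Nmnat1 held 53.4% ± 7.31 (SD, n = 18) of the sum in WT fibroblasts and 47.3% ± 5.85 (n = 6) in DMSO fibroblasts, where Nmnat2 held 19.0% ± 3.79 and 18.9% ± 5.23. In the saline SCN, Nmnat2, whose protein maintains axons, held 93.0% ± 1.24 (n = 15) and was never under 90.2%, while Nmnat3 held 1.52% ± 0.41. The fibroblast and SCN tables differ in library kit, so these shares are set side by side without a test.

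**Figure D1:**
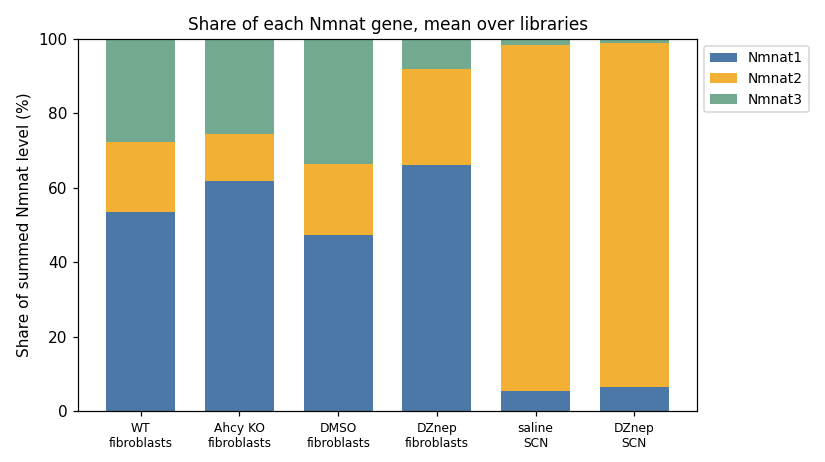
Mean share in percent of Nmnat1, Nmnat2 and Nmnat3 in their summed deposited level, for the libraries of each of the 6 arms. Nmnat2 fills 93.0% of the saline SCN bar and 92.4% of the DZnep SCN bar, and Nmnat3 shrinks from 33.7% to 8.21% between DMSO and DZnep fibroblasts.

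Loss of AHCY in fibroblasts went with higher Parp1, Nmnat1, Nmnat3 and Sirt2 and with lower Sirt6. The levels were compared with limma on log2(TPM + 1) after joint rescaling of the libraries, as the KO minus WT contrast averaged over the 6 times, and a gene was called at a Benjamini-Hochberg adjusted p under 0.05 over all 13603 genes tested. Of the 9 genes, 8 were called, 5 higher and 3 lower in KO. Of all genes, 89.6% were called in this comparison, 42.6% higher and 47% lower, so a call alone sets none of the 9 apart. The median size of the log2 change was 0.26 over the 9 genes and 0.45 over all genes.

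Parp1 ranged from 49.9 to 73.2 TPM in WT (median 62.4) and from 129 to 151 TPM in KO (median 140.1). Every KO library lay above every WT library. The log2 change was 0.95 ± 0.01 (SE; adjusted p = 3.3e-31). Nmnat1, the nuclear NMNAT, ranged from 3.16 to 6.05 TPM in WT (median 4.94) and from 9.27 to 12.9 TPM in KO (median 10.3). Here too the arms did not overlap, and the mean in KO was 2.204 times that in WT, with a log2 change of 0.82 ± 0.05 (adjusted p = 1.6e-14). Sirt6, a nuclear deacylase known for its part in DNA repair and telomere chromatin, ranged from 22.8 to 29.7 TPM in WT (median 25.7) and from 14.9 to 19.4 TPM in KO (median 17.4). All KO libraries lay below all WT libraries, with a log2 change of -0.76 ± 0.03 (adjusted p = 4.1e-19). Arms that did not overlap were found for 45.9% of all genes tested.

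Nmnat3, the mitochondrial NMNAT, ranged from 1.84 to 3.67 TPM in WT (median 2.52) and from 3.52 to 5.10 TPM in KO (median 4.54). The ranges met between the WT libraries of CT32 (3.39 to 3.67 TPM) and the lowest KO library, while within each of the 6 times every KO library was higher than every WT library in deposited values. Its log2 change was 0.47 ± 0.04 (adjusted p = 4.8e-12). Sirt2, a mainly cytoplasmic deacetylase of tubulin and other proteins, ranged from 39.7 to 69.8 TPM in WT (median 49.0) and from 63.3 to 85.6 TPM in KO (median 69.2). Its arms also met only through the WT libraries of CT32, and the log2 change was 0.26 ± 0.02 (adjusted p = 6.8e-13).

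The remaining members had changes close to 0, and for Nampt, Sirt1 and Sirt3 the sign depended on the scaling. Joint rescaling lowered KO against WT by 0.22 on the log2 scale. Nampt had 35.9 to 49.5 TPM in WT (median 44.1) and 40.3 to 49.9 TPM in KO (median 45.9), overlapping ranges, and a log2 change of -0.16 ± 0.02 (adjusted p = 3.8e-08) that became 0.05 with values as deposited (adjusted p = 0.023). Sirt3, the main mitochondrial deacetylase, ranged from 9.17 to 15.6 TPM in WT (median 11.3) and from 9.71 to 13.85 TPM in KO (median 11.4), overlapped between arms, and had a log2 change of -0.20 ± 0.03 (adjusted p = 9.1e-07), against 0.005 with values as deposited (adjusted p = 0.89). Sirt1, a nuclear deacetylase of histones and clock proteins, had 19.1 to 26.6 TPM in WT (median 23.2) and 23.4 to 29.3 TPM in KO (median 26.3). It was not called after rescaling (-0.04, 95% interval -0.09 to 0.004, adjusted p = 0.081) and was higher in KO with values as deposited (0.17, adjusted p = 3.8e-07). Nmnat2 (1.07 to 2.57 TPM in WT, 1.66 to 2.93 in KO) overlapped between arms and was called at 0.09 ± 0.04 (adjusted p = 0.035), a call lost in 16 of 44 alternative fits, where its adjusted p reached 0.23 (without CT20). Without CT32, Sirt1 was called lower in KO (-0.09, adjusted p = 0.0014). Besides the fibroblast markers, 6 other marker sums did not overlap between these arms. They included 8 endothelial markers (139 to 273 TPM in WT, 2.60 to 8.35 in KO), 6 ependymal markers (22.2 to 50.5 and 1.249 to 2.246), 8 astrocyte markers (157 to 192 and 23.5 to 32.4) and 12 SCN markers (34.0 to 72.2 and 102 to 128). The others were 12 neuron markers (41.9 to 55.9 and 26.4 to 37.5) and the 8 microglia markers matched (45.7 to 88.0 and 27.3 to 45.6). At most 2 endothelial, 2 ependymal, 4 astrocyte, 3 SCN, 4 neuron and 3 microglia markers reached 1 TPM in any of these libraries. The sums do not speak for each marker. Of 4 astrocyte markers tested, 3 were called higher in KO and 1 lower, although their sum was lower. Of 4 neuron markers tested, 2 were called higher and 2 lower. Of 10 fibroblast markers, 3 were called higher and 7 lower, where 89.6% of all genes were called. The part of these shifts in the KO changes was not tested.

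**Figure D2:**
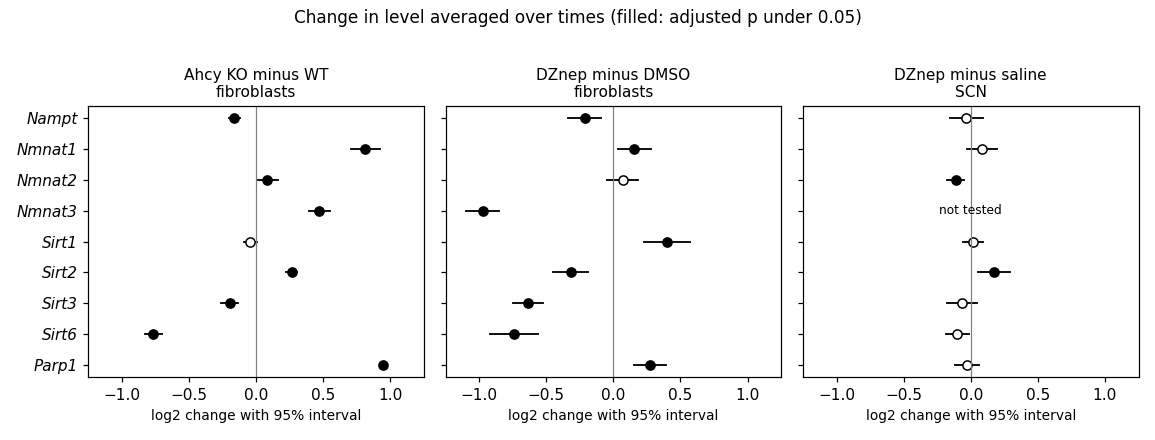
Change of each gene on the log2 scale (horizontal axis) between the arms of the 3 experiments, averaged over times, with 95% intervals. Filled circles passed an adjusted p of 0.05; Parp1 and Nmnat1 lie furthest to the right in KO, Nmnat3, Sirt6 and Sirt3 furthest to the left under DZnep in fibroblasts, and the SCN changes stay within 0.17 of 0.

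Of the other genes of NAD synthesis and transport, 20 were listed and 12 were tested in this experiment. Of these, 10 were called, 4 higher and 6 lower, beside 89.6% of all genes. Those of smallest p were Pnp, the purine nucleoside phosphorylase, which also cleaves nicotinamide riboside (log2 change -1.21, adjusted p = 1.3e-30), Nadk, the cytosolic NAD kinase (0.87, 4.6e-30), Nt5e, the surface nucleotidase CD73 (-2.42, 1.7e-29), and Nnt, the mitochondrial transhydrogenase (0.89, 1.8e-29). Of 24 other NAD consumers, 23 were tested and 21 called, 9 higher and 12 lower, beside the same 89.6%. Nudt12, an NADH-cleaving hydrolase, ranged from 5.93 to 10.3 TPM in WT and was at most 0.07 TPM in KO (log2 change -3.17, adjusted p = 3.3e-32). It passed the filter only through the WT libraries. Parp14 (1.49, 5.8e-31) and Parp12 (1.06, 1.5e-26), mono-ADP-ribosyltransferases of the interferon response, were higher in KO, and Aox1, an aldehyde oxidase that oxidizes N-methylnicotinamide and was listed with NAD breakdown, was lower (-1.93, 4.1e-29). The median log2 change was -0.13 over the tested synthesis genes and -0.05 over the consumers, beside -0.05 over all genes. These names stand for the lists, which are broad. The synthesis list holds surface enzymes such as Nt5e and Enpp1. The consumer list holds Nnmt and Aox1, which act on nicotinamide and N-methylnicotinamide.

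Fitted 24 h amplitudes were small for these genes in WT fibroblasts, beside those of clock genes. A 24 h cosine was fitted to each arm on the log2 scale and tested by the joint F test of its terms. The collection from CT12 to CT32 covered less than a full 24 h cycle, so a steady rise or fall can also pass this test. Of the 9 genes, 4 were called in WT (Sirt1, Sirt2, Sirt3 and Nmnat2), where 36.5% of all genes were called, and 1, Nmnat2, in KO, where 9.89% were. Their amplitudes in WT, measured from mean to peak, were 0.11 for Sirt1, 0.17 for Sirt2, 0.17 for Sirt3 and 0.17 for Nmnat2. The median amplitude was 0.13 over the 9 genes and 0.10 over all genes. In the same fit all 12 listed clock genes, such as Dbp and Per2, were called, with a median amplitude of 1.04; in KO 4 were called, with a median of 0.16.

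Nampt, the member best known as a clock output, stayed nearly level in WT until a late drop. It averaged 45.5 ± 1.3 TPM at CT12, 45.5 ± 2.05 at CT16, 45.2 ± 3.80 at CT20, 43.5 ± 0.81 at CT24, 44.6 ± 0.67 at CT28 and 37.2 ± 1.24 at CT32 (SD, n = 3 each). Each of the 3 WT libraries of CT32 lay below each WT library of the other times. The 24 h terms did not pass (amplitude 0.09, adjusted p = 0.083), while a test of any difference among times did (adjusted p = 1.2e-05). In KO, Nampt averaged 43.7 ± 1.65 TPM at CT12 and 48.2 ± 1.51 at CT32, and its 24 h terms did not pass (amplitude 0.04, adjusted p = 0.74).

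Sirt2 and Parp1 ended the WT collection far from where they began. Sirt2 averaged 40.3 ± 0.61 TPM at CT12, 46.2 ± 1.72 at CT16, 50.8 ± 3.13 at CT20, 50.1 ± 2.78 at CT24, 52.0 ± 3.88 at CT28 and 67.4 ± 2.26 at CT32 (SD, n = 3 each). The CT32 libraries were the highest and the CT12 libraries the lowest. In KO, Sirt2 stayed at 65.9 to 72.2 TPM on average until CT28 and reached 83.2 ± 2.64 at CT32. Parp1 in WT went the other way, from 72.1 ± 1.12 TPM at CT12 through 57.7 ± 2.99 at CT20 and 65.9 ± 3.07 at CT24 to 50.8 ± 0.82 at CT32, whereas in KO it averaged 132 ± 2.68 at CT12 and 141 ± 1.82 at CT32. The test of any difference among times called 8 of the 9 genes in WT, 4 in KO and 7 for the difference between the arms, while that test called 69.5%, 42.7% and 52.2% of all genes. Which WT genes passed the 24 h terms varied with the libraries used. Without CT32, Sirt1 (adjusted p = 0.16) and Nmnat2 (0.29) did not pass and Parp1 did (0.0031), without CT20 Nmnat2 did not (0.16) and Parp1 (0.0031), Nmnat3 (0.030) and Sirt6 (0.034) did, and without the 3 WT and 3 KO libraries of high Malat1, a nuclear RNA, Sirt2 (0.059) and Sirt3 (0.10) did not. With a linear trend added, 5 members passed in WT: Sirt1 and Sirt2 still did, Parp1 (0.00012), Nmnat3 (0.0089) and Nampt (0.019) now did, and Nmnat2 (0.089) and Sirt3 (0.81) did not.

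Of the other NAD genes, 3 of 12 synthesis genes and 10 of 23 consumers were called for 24 h terms in WT. The share over all genes was 36.5%. Those called from the synthesis list were Pnp (amplitude 0.26), Enpp1, a surface pyrophosphatase (0.44), and Nmrk1, a nicotinamide riboside kinase (0.21). From the consumer list, those of smallest p were Parp12 (0.19), Sirt5 (0.21) and Parp4 (0.21). In KO, 2 genes of the synthesis list (Enpp1, 0.40, and Nnt, 0.09) and 1 of the consumer list, Nnmt (0.25), were called. Of all genes, 9.89% were. Enpp1 was low in KO, averaging 0.70 to 2.21 TPM by time, and its lowest library was at 0.015 TPM at both CT24 and CT28.

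**Figure D3:**
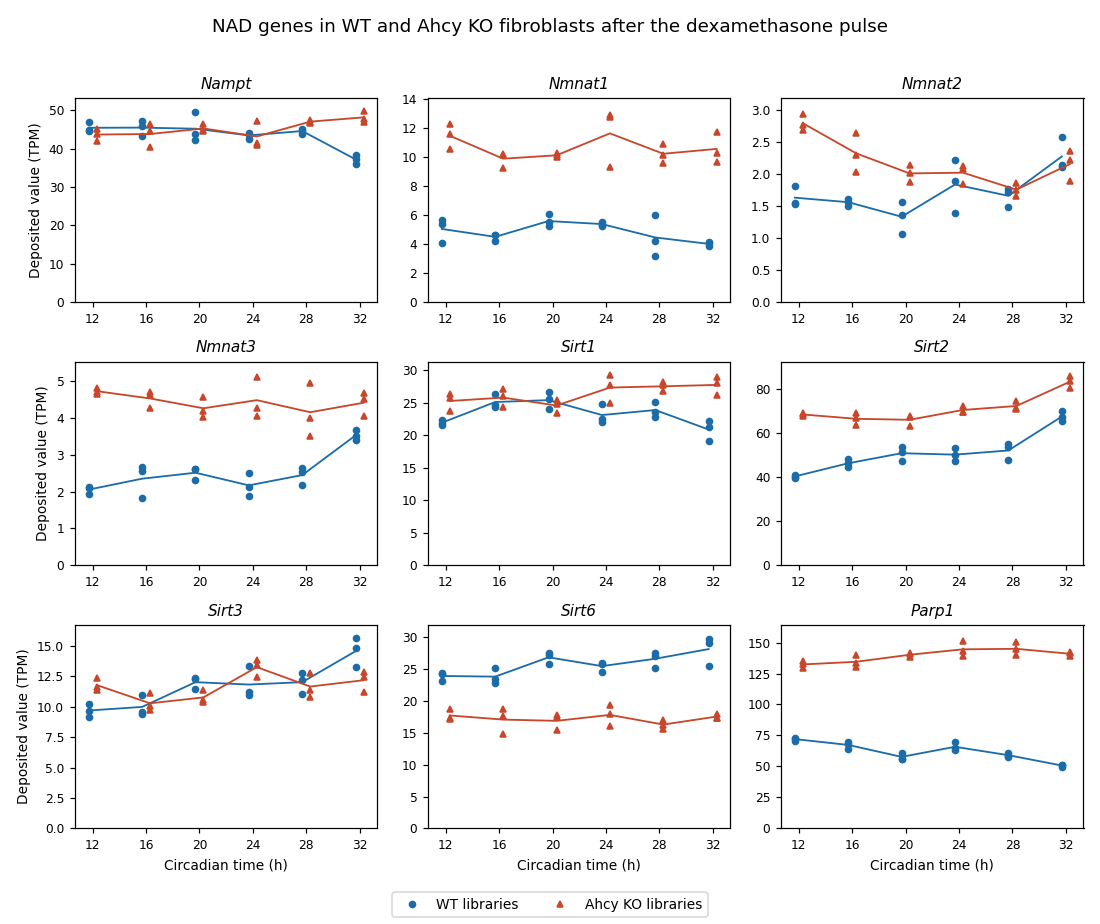
Deposited TPM (vertical axes, from 0) of the 9 genes against circadian time in hours, with circles for the 3 WT and triangles for the 3 KO libraries of each time and lines through the means. Parp1, Nmnat1, Nmnat3, Sirt2 and Sirt6 keep separate arms at each of the 6 times. The WT libraries of CT32 depart from the earlier ones for Nampt (37.2 on average), Nmnat3 (3.53) and Sirt2 (67.4).

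The difference of the 24 h terms between KO and WT was called for Sirt1 and Nmnat2, 2 of 9 genes, beside 14.5% of all genes. Sirt1 in WT averaged 21.9 ± 0.42 TPM at CT12, 25.1 ± 1.11 at CT16, 25.4 ± 1.3 at CT20, 23.1 ± 1.47 at CT24, 23.9 ± 1.21 at CT28 and 20.9 ± 1.58 at CT32 (SD, n = 3 each). The CT16 and CT20 libraries were all above those of CT12, and the fitted peak was at CT19.9. In KO it averaged 24.6 to 25.8 TPM up to CT20 and 27.3 to 27.7 TPM from CT24 on, and the adjusted p of the difference was 0.0088. Nmnat2 in KO fell on average from 2.79 ± 0.13 TPM at CT12 to 1.76 ± 0.10 at CT28, while in WT it averaged 1.63 ± 0.15 at CT12 and 2.27 ± 0.26 at CT32 (adjusted p of the difference 0.019). With a linear trend added to the fit, neither difference passed (adjusted p = 0.078 for Sirt1 and 0.90 for Nmnat2). Without CT20, where the WT libraries held muscle transcripts, the adjusted p for Sirt1 was 0.093, and without CT32 it was 0.078. The part of the muscle transcripts in these courses was not tested.

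The canonical E-box, the palindrome cacgtg bound by CLOCK and BMAL1, was looked for in the 250 bases before each RefSeq start of the 9 genes (12 windows, RefSeq sequences of GRCm38.p6). It occurred in the windows of Sirt1 and Parp1 and in none of the other 7 genes, including Nampt, whose window is shown beside them because its clock control is the best known. Of all 32851 windows of this length, 6.02% held the motif, and of 11 listed clock genes with a window, 5 did. The windows below are read 5′ to 3′ on the strand of the gene, with the E-box in capitals. They lie at chr12:32820085-32820334 (plus strand) for Nampt, at chr10:63339036-63339285 (minus strand) for Sirt1 and at chr1:180568641-180568890 (plus strand) for Parp1. The windows of Nampt and Sirt1 lie within the longer gene extents of GENCODE vM21.
Nampt: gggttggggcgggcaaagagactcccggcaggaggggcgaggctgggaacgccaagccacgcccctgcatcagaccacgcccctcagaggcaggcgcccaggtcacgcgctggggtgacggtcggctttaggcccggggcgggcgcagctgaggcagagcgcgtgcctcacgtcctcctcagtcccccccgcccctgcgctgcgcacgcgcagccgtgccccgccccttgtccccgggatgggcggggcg
Sirt1: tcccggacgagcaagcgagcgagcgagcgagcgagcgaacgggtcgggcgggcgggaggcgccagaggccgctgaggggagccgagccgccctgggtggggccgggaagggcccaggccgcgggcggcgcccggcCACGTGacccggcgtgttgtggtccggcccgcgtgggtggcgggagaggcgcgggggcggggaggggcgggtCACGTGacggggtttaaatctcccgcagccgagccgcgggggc
Parp1: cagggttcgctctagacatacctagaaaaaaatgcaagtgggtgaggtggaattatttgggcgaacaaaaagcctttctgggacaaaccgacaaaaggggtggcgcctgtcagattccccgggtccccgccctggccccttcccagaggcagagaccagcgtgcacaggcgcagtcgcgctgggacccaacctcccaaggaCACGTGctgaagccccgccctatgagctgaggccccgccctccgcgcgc
The E-boxes of Sirt1 begin 115 and 43 bases before the start and that of Parp1 begins 49 bases before it. The motif reads the same on both strands, so 1 search covers both. The windows of Nampt and Sirt1 are rich in G and C (75.6% and 79.2%), that of Parp1 less so (61.6%). Beside these sequences stand the WT amplitudes of 0.09 for Nampt, 0.11 for Sirt1 and 0.12 for Parp1, of which only that of Sirt1 passed (adjusted p = 0.0047). A motif here is a description of the letters and not of binding.

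By likeness of course over the 36 libraries of this experiment, each centred on the mean of its arm, the genes closest to Sirt2 were Mroh1 (Pearson r = 0.94), Grina (0.94) and Shc1 (0.94). Those closest to Sirt3 were Tbc1d16 (0.84), Ctsf (0.84) and Dcaf5 (0.83). Those closest to Sirt1 were Dhx36 (0.80), Bmi1 (0.79) and Dnm1l (0.78), and those closest to Nmnat2 were Sec61a1 (0.78), Stt3b (0.70) and Txndc11 (0.69). These are descriptions over libraries that share times, chosen as the highest among genes of mean 5 TPM or more.

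DZnep in fibroblasts went with lower Sirt6 and Sirt3 and with higher Sirt1. Nmnat3 was much lower too, but it passed the filter only through the DMSO libraries. Over both times, 8 of the 9 genes were called, 3 higher and 5 lower, beside 65.9% of the 10896 genes tested, 33.1% higher and 32.7% lower. The median log2 change was -0.21 over the 9 genes and 0.006 over all genes.

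Nmnat3 ranged from 1.15 to 1.89 FPKM over the 6 DMSO libraries (median 1.61) and from 0.27 to 0.39 FPKM over the 6 DZnep libraries (median 0.33). The arms lay far apart, and the mean under DZnep was 20.7% of that under DMSO. No DZnep library reached the filter of 1 FPKM, so Nmnat3 was tested because of its DMSO level and its call is only a description. On the log2(FPKM + 1) scale the change was -0.97 ± 0.06 (SE; adjusted p = 4.7e-08), and with a pseudocount of 0.1 it was -2.01, since the added 1 understates the change of so low a gene. Nmnat3 thereby fell from 33.7% ± 3.11 to 8.21% ± 1.15 of the summed Nmnat level (SD, n = 6 each), and Nmnat1 stood at 66.2% ± 1.83. Sirt6 ranged from 9.80 to 14.0 FPKM under DMSO (median 12.6) and from 5.84 to 9.06 FPKM under DZnep (median 6.89). No library overlapped, and the log2 change was -0.74 ± 0.08 (adjusted p = 9.1e-06). Sirt3 ranged from 6.08 to 7.55 FPKM under DMSO (median 6.75) and from 3.84 to 4.85 FPKM under DZnep (median 4.04). Its arms were also separate, with a log2 change of -0.64 ± 0.05 (adjusted p = 7.1e-07).

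Sirt1 ranged from 6.08 to 8.87 FPKM under DMSO (median 8.34) and from 10.45 to 11.9 FPKM under DZnep (median 11.1). All DZnep libraries were higher, with a log2 change of 0.40 ± 0.08 (adjusted p = 0.00087). After rescaling, arms that did not overlap were found for 4 of the 9 genes (Nmnat3, Sirt1, Sirt3 and Sirt6), beside 30.1% of all genes. Parp1 was at 19.2 to 30.7 FPKM under DMSO (median 26.0) and 27.7 to 36.9 FPKM under DZnep (median 31.8). Its arms overlapped over both times but not within CT12 or CT24, and the log2 change was 0.27 ± 0.05 (adjusted p = 0.00099). Sirt2 (28.0 ± 4.52 FPKM under DMSO, 23.0 ± 2.84 under DZnep) and Nampt (15.3 ± 2.15 and 13.5 ± 1.08; SD, n = 6 each) overlapped between arms and were called lower (-0.32, adjusted p = 0.00061, and -0.21, adjusted p = 0.0051). Nmnat1 (2.178 ± 0.12 FPKM and 2.65 ± 0.40) was called higher by 0.16 (adjusted p = 0.029), which lapsed in 5 of 18 alternative fits.

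Nmnat2 was the 1 member whose response to DZnep was called different between the times. Its 3 DMSO libraries were at 0.48, 0.58 and 0.70 FPKM at CT12 and at 1.214, 1.237 and 1.247 FPKM at CT24. Its 3 DZnep libraries were at 0.95, 1.10 and 1.17 FPKM at CT12 and at 0.88, 1.00 and 1.03 FPKM at CT24. DZnep libraries were thus all higher than DMSO at CT12 and all lower at CT24. The DZnep minus DMSO change was 0.36 ± 0.07 at CT12 (adjusted p = 0.0019) and -0.22 ± 0.07 at CT24 (adjusted p = 0.026), and the difference of the time changes was -0.57 ± 0.10 (adjusted p = 0.0095). In this comparison 6.11% of all genes were called, 3.2% with a positive and 2.91% with a negative difference. The adjusted p of Nmnat2 ranged from 0.0042 to 0.036 over its alternatives, and its change at CT24 lapsed in 5 of 18. The levels lie near the filter of 1 FPKM, and read depth is unknown.

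At CT12 all 9 genes were called, 4 higher and 5 lower under DZnep, beside 51.6% of all genes (25.7% higher, 25.8% lower). At CT24 there were 7, 2 higher and 5 lower, beside 56.6% of all genes (27.9% higher, 28.7% lower). Between the times, 6 of 9 genes changed in the DMSO fibroblasts, beside 50.7% of all genes (26.8% higher and 23.9% lower at CT24). Nmnat2 (0.55), Sirt2 (0.43), Nmnat3 (0.32) and Sirt3 (0.21) rose from CT12 to CT24 on the log2 scale, and Parp1 (-0.28) and Nampt (-0.23) fell. Without DMSO replicate 1 of CT12, 3 of the 6 passed. Nampt was at 16.8, 17.3 and 17.3 FPKM at CT12 and at 12.2, 13.6 and 14.7 FPKM at CT24, ranges that did not overlap (adjusted p = 0.029). Its call lapsed without DMSO replicate 1, 2 or 3 of CT12 (adjusted p = 0.082, 0.058 and 0.073) and without replicate 3 of CT24, where the change was -0.15 (adjusted p = 0.065). Under DZnep, 1 gene of 9 changed with time, beside 37.2% of all genes (19.4% higher, 17.8% lower): Sirt2, from 19.1, 20.4 and 23.4 FPKM to 23.0, 26.0 and 26.1 FPKM (0.33 ± 0.08, adjusted p = 0.010).

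**Figure D4:**
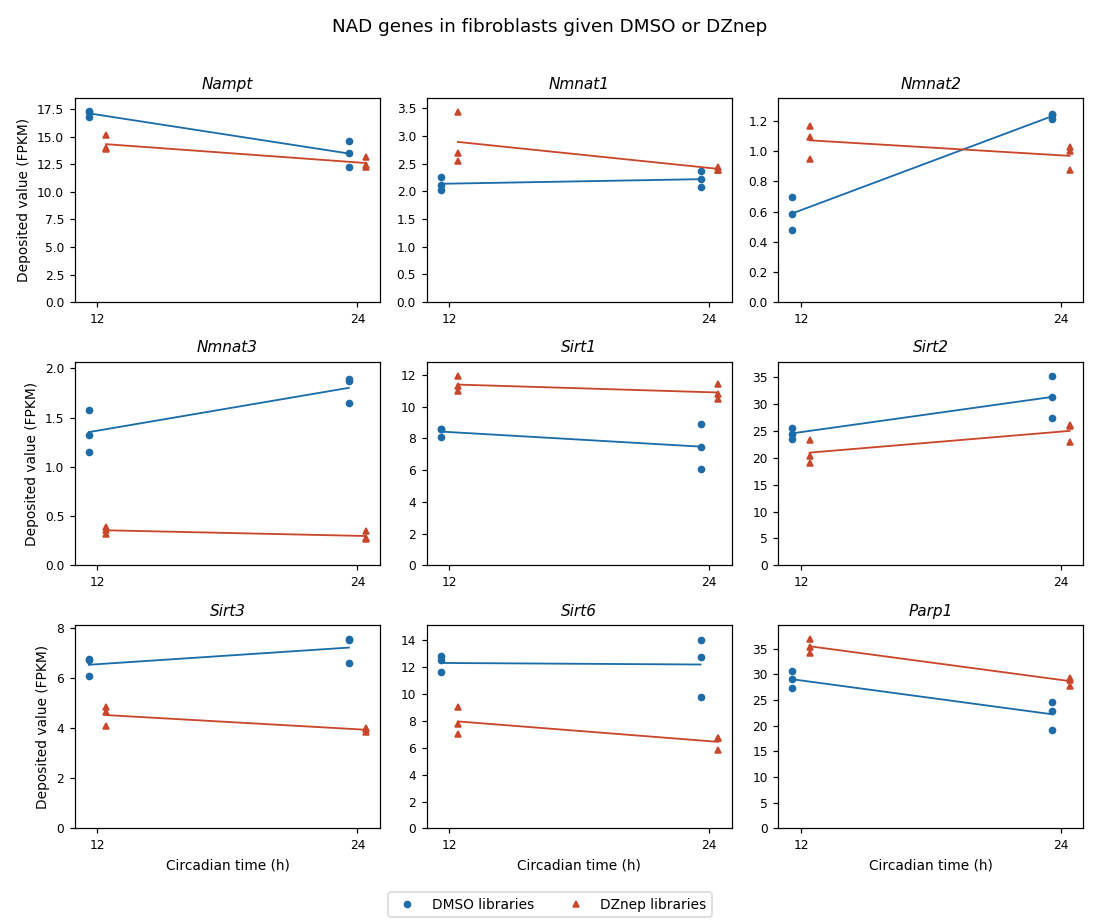
Deposited FPKM (vertical axes, from 0) of the 9 genes at CT12 and CT24, with circles for DMSO and triangles for DZnep libraries (3 per group) and lines through the means. Nmnat3 lies at 0.27 to 0.39 in the DZnep libraries, below the lowest DMSO library at 1.15, and the lines of Nmnat2 cross.

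Of the other genes of the synthesis list, 9 were tested here. In the comparison of both times 5 were called, 2 higher and 3 lower, beside 65.9% of all genes. Enpp1 was lower (18.9 ± 8.83 and 4.41 ± 0.83 FPKM; -1.81, adjusted p = 5.4e-09), as were Afmid, the formamidase of the kynurenine route (-0.80, 8.2e-07), and Nadsyn1, the NAD synthetase (-0.44, 1e-05). Slc25a51, the mitochondrial NAD carrier, was higher (16.4 ± 1.72 and 22.6 ± 3.88 FPKM; 0.37, adjusted p = 6.8e-06). Of 21 genes tested from the consumer list, 13 were called, 3 higher and 10 lower, beside the same 65.9%. Sirt5, a mitochondrial desuccinylase (-0.93, 3.4e-07), Parp16 (-0.91, 6e-07), Nnmt, which methylates nicotinamide with S-adenosylmethionine (-0.91, 8.7e-07), and Parp11 (-0.50, 4.9e-06) had the smallest p. The median log2 change was -0.11 over the synthesis genes and -0.16 over the consumers. The lower sum of fibroblast markers under DZnep moves with these changes, and its part in them was not tested.

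Across the KO and DZnep comparisons of fibroblasts, Parp1 and Nmnat1 were called higher and Sirt6, Sirt3 and Nampt lower in each. Of these, Sirt3 and Nampt in KO rested on the scaling as given above, and Nmnat1 under DZnep lapsed in 5 of 18 alternative fits. Of all genes, 89.6% and 65.9% were called in the KO and DZnep comparisons, and the share called alike in both is not given here. Sirt2 was called in opposite directions, higher in KO and lower under DZnep. Nmnat3 was also higher in KO and lower under DZnep, but its DZnep call is only a description, since it passed that filter only through the DMSO libraries. The experiments used separate control libraries and differ in unit, so the difference of these changes was not tested.

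In the SCN, DZnep went with small shifts in 2 of these genes. Nmnat3 was under the filter (at 1 FPKM or more in fewer than 3 libraries), so 8 genes were tested, and 2 were called, 1 lower and 1 higher, beside 35.2% of the 13312 genes tested, 18.3% lower and 16.9% higher. The median size of the change was 0.08 over the 8 genes and 0.08 over all genes.

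Nmnat2 ranged from 24.3 to 38.2 FPKM in 15 saline libraries (median 33.0) and from 25.1 to 34.5 FPKM in 16 DZnep libraries (median 30.1). The ranges overlapped, and the log2 change was -0.11 ± 0.03 (SE; adjusted p = 0.0046). With values as deposited the adjusted p was 0.16. Sirt2, which is abundant in oligodendrocytes, ranged from 27.8 to 46.1 FPKM under saline (median 31.9) and from 30.3 to 45.2 FPKM under DZnep (median 36.9). These ranges overlapped as well, and the log2 change was 0.17 ± 0.06 (adjusted p = 0.024). Without saline replicate 2 of CT9 the changes were -0.13 for Nmnat2 (adjusted p = 8.9e-05) and 0.21 for Sirt2 (adjusted p = 0.00055). The summed neuron markers had a median of 895 FPKM under saline (708 to 1058) and 843 under DZnep (693 to 961), and the summed oligodendrocyte markers 954 (741 to 1391) and 959 (789.8 to 1296). Of 12 neuron markers 3 were called lower and 1 higher. Of 10 oligodendrocyte markers 2 were called higher and 1 lower, beside 35.2% of all genes called either way. Malat1 was lower under DZnep on average at each of the 4 times, at 1060 ± 144 FPKM over the saline and 771 ± 112 FPKM over the DZnep libraries (SD, n = 15 and 16), with overlapping ranges. The part of the cell mixture and of the Malat1 shift in the changes of Nmnat2 and Sirt2 was not tested.

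The other members did not pass in the SCN. The 95% interval of the log2 change was -0.15 to 0.09 for Nampt, -0.06 to 0.09 for Sirt1, -0.12 to 0.06 for Parp1, -0.18 to 0.05 for Sirt3, -0.03 to 0.20 for Nmnat1 and -0.18 to -0.02 for Sirt6, whose adjusted p was 0.06 and which passed in 5 of 36 alternative fits. Nmnat3 ranged from 0.32 to 0.68 FPKM under saline (median 0.58) and from 0.20 to 0.75 FPKM under DZnep (median 0.36), overlapping ranges. In a fit with no filter its change was -0.13 (adjusted p = 0.014).

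No member was called for 24 h terms in the SCN, 0 of 8 in saline, 0 of 8 in DZnep and 0 of 8 for their difference by limma, beside 18.3%, 10.2% and 0.308% of all genes. At an unadjusted p under 0.05 there were 1 (Nampt), 2 (Nmnat1 and Sirt3) and 0. Nampt under saline averaged 8.30 ± 0.36 FPKM at CT3, 10.4 ± 3.40 at CT9, 9.00 ± 0.60 at CT15 (SD, n = 4 each) and 7.56 ± 0.22 at CT21 (n = 3). The mean at CT9 includes replicate 2 with 15.3 FPKM, the library with the microglial transcripts. The fitted amplitude was 0.18 with a peak at CT9.37 (adjusted p = 0.094, and 0.20 without that library). Sirt1 averaged highest at CT15 in both arms, at 4.45 ± 0.40 FPKM under saline and 4.56 ± 0.43 under DZnep (SD, n = 4 each), with fitted peaks at CT16.0 and CT16.8. Neither passed (adjusted p = 0.24 and 0.40). The median amplitude was 0.09 in saline and 0.06 in DZnep over the 8 genes, and 0.58 and 0.60 over the 12 clock genes, which were all called in both arms.

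**Figure D5:**
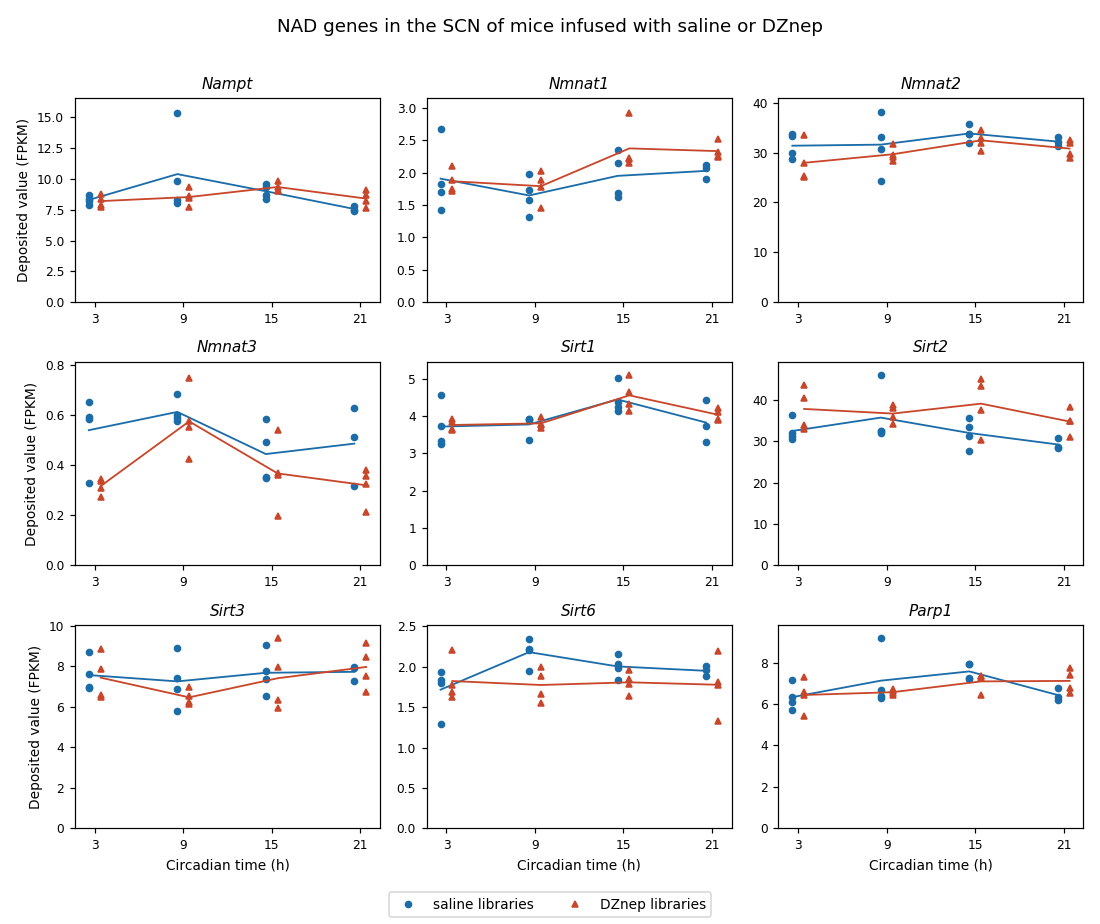
Deposited FPKM (vertical axes, from 0) of the 9 genes in the SCN against circadian time in hours, with circles for saline and triangles for DZnep libraries and lines through the means. The arms overlap for each gene over all libraries, and saline replicate 2 at CT9 stands above its group for Nampt (15.3), Sirt2 (46.0) and Parp1 (9.17).

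Among the other NAD genes of the SCN, Slc25a51 had the smallest p. It ranged from 7.97 to 9.88 FPKM under saline (median 8.81) and from 9.52 to 12.6 FPKM under DZnep (median 11.6), nearly separate ranges, with a log2 change of 0.30 (adjusted p = 4.1e-09). Of 11 genes tested from the synthesis list, 3 were called, beside 35.2% of all genes. They were Slc25a51 and, lower, Afmid (-0.19, adjusted p = 0.0085) and Naprt, which salvages nicotinic acid (-0.20, adjusted p = 0.010). Of 21 genes tested from the consumer list, 4 were called, all lower, beside 18.3% of all genes called lower. They were Aox1 (-0.23, 0.00021), Tnks, a tankyrase (-0.09, 0.00042), Sarm1, the axonal NADase (-0.14, 0.002), and Nnmt (-0.26, 0.036). Aox1 was at most 0.97 FPKM in the DZnep libraries, so it passed the filter only through the saline libraries and its call is only a description. Nnmt averaged 0.27 to 0.97 FPKM over the DZnep groups and 0.45 to 1.32 FPKM over the saline groups, near the filter of 1 FPKM. For 24 h terms under saline, Pnp of the synthesis list (amplitude 0.24, adjusted p = 0.012) and Parp6, Nnmt and Tnks2 of the consumer list were called. The share over all genes was 18.3%.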

How the data were processed

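Libraries were TruSeq RNA v2 from TRIzol extracts (fibroblasts) and SMARTer Stranded pico v2 from RNeasy Micro extracts (SCN), per the labels. TopHat2 2.1.1 and Cufflinks 2.2.1, the build mm10, Trimmomatic 0.36 and bcl2fastq 2.18.0.12 are named in the submitters' processing notes. Annotation and strand setting were not given in the sources used, and reads of Sirt1, Sirt2 and Sirt3 cannot be told apart from those of opposite-strand genes that share 65 (Gm16145), 42 (Nfkbib), 418 (Ric8a) and 342 (Psmd13) exonic bases with them in GENCODE vM21. Parp1 shares 7 exonic bases with Mir6904.

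The deposited WT and KO values were taken as TPM, inferred from library sums of 970075 to 980677, where the design had assumed FPKM. The other tables were deposited as FPKM. Of the SCN values with 7 or more digits, 96.8% end in 25, 5 or 75, like means of 4 numbers, so it is unclear whether an SCN column holds 1 library or a mean, and the SCN errors carry that doubt. No counting intervals are given because read depth is unknown. Every arm has its own deposited file.

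Libraries of an experiment were rescaled jointly by median ratios. The filter kept genes reaching 1 in 3 or more libraries, tested on log2(value + 1) with limma 3.58.1 (trend) in R 4.3.3 with data.table (version 1.17.8), with Benjamini-Hochberg adjustment over all genes. Fold changes of low genes are understated. Levels and ± SD in the text are deposited values, and p-values measure the spread between libraries only. The procedure was tested on simulated data. Alternatives were other scalings, filters and pseudocounts, other time models, the replicate number as a block, and fits without single libraries, without libraries of high Malat1, without CT20 and, added after the data had been seen, without CT32.

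The 9 genes and the gene lists were chosen with earlier results of these data known. The 9 genes are always named. Up to 4 called genes per list are named by smallest p for a level and up to 3 for a time course, and up to 3 by likeness of course for each member with called 24 h terms. List names were matched through RefSeq synonyms where needed, which left 2 synthesis genes and 1 clock gene unmatched in the DMSO and DZnep fibroblasts.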

Additional observations from a re-analysis of the deposited data

Results flagged for a closer look

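Among 63 SCN groups of a gene and time with 4 libraries, 5 held 1 library far from the other 3 by Dixon's test, where chance gives about 1 in 20. Saline replicate 2 at CT9 was high for Sirt2 (46.0 FPKM, nearest 32.6) and Parp1 (9.17 FPKM, nearest 6.69) and low for Sirt1 (3.37 FPKM, nearest 3.89). This is the library with 486 FPKM of summed microglia markers. At CT15 under DZnep, replicate 3 was high for Nmnat1 (2.91 FPKM, nearest 2.22) and replicate 2 low for Parp1 (6.42 FPKM, nearest 7.25).

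The 24 h terms differed between KO and WT for Sirt1 (adjusted p = 0.0088) and Nmnat2 (adjusted p = 0.019), and the change from CT12 to CT24 differed between DZnep and DMSO for Nmnat2 (adjusted p = 0.0095), each by the test of the difference itself. These tests called 14.5% and 6.11% of all genes. With a linear trend added, neither difference between KO and WT passed (adjusted p = 0.078 for Sirt1 and 0.90 for Nmnat2). That of Sirt1 also lapsed without CT20 (0.093) or CT32 (0.078).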

How the results depend on the processing

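With values as deposited, the KO minus WT changes of Nampt (0.0536), Sirt1 (0.169) and Sirt3 (0.00452) took the opposite sign. Counts of called members moved by more than 1.5 times as follows. For WT 24 h terms (4), 8 were called for any difference among times and 2 without the libraries of high Malat1. For KO 24 h terms (1), there were 4 for any difference among times, and 0 with a linear trend and with a mean of 5 or more, a filter that removes Nmnat2. For their difference (2), there were 7, 1 and 1. The difference of time changes under DZnep (1) gave 2 with no filter and 0 with a mean of 5 or more, the DZnep time change (1) gave 2 without the library of high Malat1, and the SCN level (2) gave 1 with values as deposited. No alternative removed the KO level calls of Parp1, Nmnat1, Nmnat3, Sirt2 and Sirt6 that it tested. The same held for the DZnep fibroblast level calls, averaged over both times, of Sirt3, Sirt6, Sirt1, Parp1, Sirt2 and Nampt. Nmnat3 also kept its DZnep level call in the alternatives that tested it. That call remains only a description, since Nmnat3 passed the main filter only through the DMSO libraries. At CT12 alone, the DZnep calls lapsed for Sirt2 and Parp1 (4 of 19 alternatives each), Sirt1 (2 of 19) and Nmnat1 (2 of 18). The cause was not tested.

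Leaving out 1 library at a time gave 7 to 9 members for the KO level, 3 to 6 for WT 24 h terms, 0 to 1 for KO 24 h terms (0 without any 1 of the 3 KO libraries of CT12, the 3 of CT28, replicate 3 of CT16 or replicate 1 of CT24) and 2 to 2 for their difference. It gave 7 to 8 for the DZnep fibroblast level, 6 to 9 at CT12, 6 to 8 at CT24, 3 to 6 for the DMSO time change, 1 to 2 for the DZnep time change (2 without DMSO replicate 2 or 3 of CT24) and 1 to 1 for their difference. In the SCN it gave 2 to 3 for the level, 0 to 1 for saline 24 h terms (Nampt, without saline replicate 4 of CT9, adjusted p = 0.044), 0 to 0 for DZnep and 0 to 0 for the difference.

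Over all genes, any difference among times called 9454 in WT (4970 for the cosine), 5813 in KO (1345) and 7103 for the difference (1970), which was 3473 without CT32 and 1306 without high Malat1, where KO had 850. Values as deposited turned the KO split from 5791 higher and 6396 lower to 7280 and 4857, the DMSO time change from 2922 and 2607 to 2118 and 3238, the DZnep time change from 2113 and 1940 to 1488 and 2639 and the SCN level from 2255 and 2433 to 2257 and 1586, and left 1615 of 2436 saline 24 h calls. The difference of time changes under DZnep ranged from 294 to 1939 genes without single libraries (666 with all; 308 higher and 182 lower with a mean of 5 or more, against 349 and 317). The SCN difference of 24 h terms ranged from 12 to 190 genes over the alternatives (41).

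The median correlation of pairs by replicate number was near 0 (0.037 for WT and KO, -0.018 for DMSO and DZnep, -0.071 for SCN). It was over 0.1 for 5 of 18, 3 of 6 and 1 of 15 pairs. All libraries of high Malat1 were replicate 2, except KO replicate 3 of CT16. Whether libraries of the same replicate number share a batch was not tested. With the replicate number as a block, 8 members were called for the KO level, 4, 1 and 2 for the 24 h terms of WT, KO and their difference, 8 for the DZnep fibroblast level and 2 for the SCN level.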
